A study of Homo sapiens with 9 samples.

Results

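The 10 genes described here encode secreted inflammatory mediators: the neutrophil-attracting chemokines CXCL1, CXCL2, CXCL3, CXCL5 and CXCL8, the chemokine CCL20, and the cytokines IL1A, IL1B, IL6 and LIF. They were picked by gene symbol, by a rule that contains no measured value but was written with earlier results of these data known, and are 10 of the 60675 genes counted in each library. RNA-seq was carried out on LNCaP:C4-2, a line derived from LNCaP prostate cancer cells that grows without androgen. The question was how expression changes when METTL3, the catalytic subunit of the complex that writes N6-methyladenosine on RNA, is depleted. The 9 libraries form 3 groups of 3. The shScramble cells carried a doxycycline-inducible scrambled short hairpin RNA that targets no gene, and the shMETTL3 guide 2 and shMETTL3 guide 1 cells carried hairpins against METTL3 in the same kind of vector. Lentivirus for all 3 groups was made in HEK293T cells, a human embryonic kidney line. The transduced cells were selected with puromycin at 1 µg/ml for 3 weeks, kept in medium with charcoal-stripped serum, and given doxycycline at 1 µg/ml for 6 days, the control group included. The sample titles, in contrast, name a vehicle. No source states that the 3 libraries of a group came from separate cultures, so the p-values measure the spread between libraries, which may be technical.

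Chemokines and cytokines of this set are classical targets of the transcription factor NF-κB. Signals such as interleukin-1 or tumour necrosis factor release NF-κB dimers into the nucleus, where they bind κB elements in promoters. The CXCL chemokines then act on CXCR1 and CXCR2 of neutrophils, CCL20 acts on CCR6 of lymphocytes and dendritic cells, and IL-1α and IL-1β act on the IL1R1 and IL1RAP receptor pair. IL-6 and LIF signal through receptors that share the gp130 subunit (IL6ST) and activate JAK kinases and STAT3. Their mRNAs are short-lived and are controlled by decay factors as well as by transcription.

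The κB-type elements of the members are shown because they are a sequence feature that the 5 CXCL genes and IL6 share, although the RNA of these genes was scarce here. Promoter sequences were those of RefSeq on GRCh38.p14 and covered 9 of the 10 members, all but LIF. In the 250 bases before the start site, 6 of the 9 held GGANTTTCC, searched on both strands. Of 35116 promoters of the same length, 510 (1.45%) held it. The longer form GGGAATTTCC, which contains the shorter one, occurred in 4 of the 9 members (CXCL1, CXCL2, CXCL3 and CXCL5) and in 50 of all promoters (0.142%). The letters were chosen after the sequences had been read. Each of the following stretches has 30 bases, is written 5′ to 3′ on the gene's strand, and has the 9-base match in capitals.
CXCL1: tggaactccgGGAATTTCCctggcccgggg
CXCL2: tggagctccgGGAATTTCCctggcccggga
CXCL3: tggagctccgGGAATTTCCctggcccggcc
CXCL5: atgagttcagGGAATTTCCccagcatccca
CXCL8: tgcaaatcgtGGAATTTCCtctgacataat
IL6: atcaaatgtgGGATTTTCCcatgagtctca

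These stretches lie at chr4:73869305-73869334 on the plus strand (CXCL1), chr4:74099253-74099282 on the minus strand (CXCL2), chr4:74038748-74038777 on the minus strand (CXCL3), chr4:73998748-73998777 on the minus strand (CXCL5), chr4:73740468-73740497 on the plus strand (CXCL8) and chr7:22727118-22727147 on the plus strand (IL6). In the authors' gene annotation, 4 of the 6 stretches fall inside the gene's own interval, which starts further upstream than the RefSeq start site. CXCL1, CXCL2 and CXCL3 were nearly identical around the element, with 28 of 30 positions shared between CXCL1 and CXCL2, 28 between CXCL2 and CXCL3 and 27 between CXCL1 and CXCL3. CXCL8 shared 17 of 30 positions with CXCL1, and IL6 shared 14. The first base of the match stood 78 bases before the start site in CXCL1 and CXCL3, 77 in CXCL2, 90 in CXCL5, 91 in CXCL8 and 72 in IL6. The AP-1 letters TGANTCA occurred in the promoters of CXCL8 and IL1A, and in 6.57% of all promoters. A match of letters is a description of the sequence, not a measurement of binding.

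**Figure D1:**
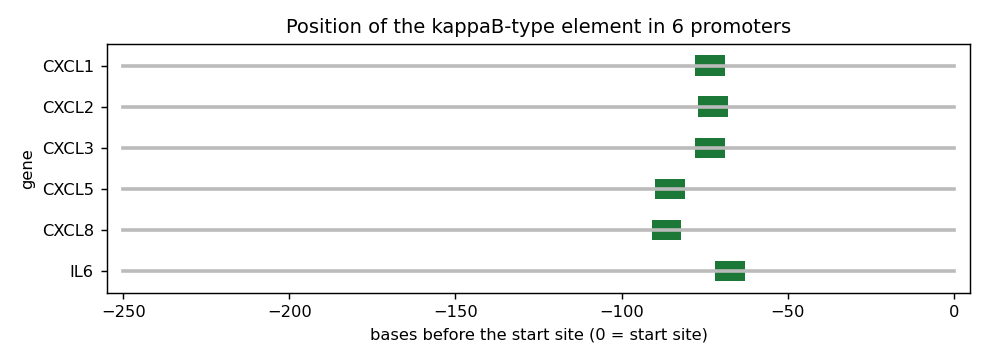
Position of the 9-base κB-type match (green bar) within the 250 bases before the RefSeq start site (grey line, x axis in bases) in the 6 promoters that hold it. The first base of the match lies between 72 and 91 bases before the start site in each of them.

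Sequencing depth was similar in all libraries, with 21899501 to 30897639 counts each and 241484692 in all. A level of 3 counts, the limit that a count of 0 allows, corresponds to 0.0971 to 0.137 CPM (counts scaled to a common library size) in a single library. Intervals and limits of this kind cover counting error only. The targeted gene was checked first. METTL3 had 922, 1010 and 753 counts with shScramble, 382, 415 and 349 with guide 2, and 837, 837 and 886 in the libraries labelled guide 1. After TMM scaling, which corrects for library composition, METTL3 fell with guide 2 by 0.95 on the log2 scale (SE 0.0687, edgeR adjusted p = 2.97e-12). Under the guide 1 label its log2 fold change was -0.08 (SE 0.0633, edgeR adjusted p = 0.251). METTL3 RNA was thus not lowered in these libraries, although their label names a hairpin against METTL3. The reason was not tested, and the libraries are called by their label throughout.

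Marker genes of cell types were measured beside the members. All 11 luminal prostate markers were at 1 CPM or more in every group, and their summed level was 3070 to 3130 CPM with shScramble, 3540 to 3680 with guide 2 and 1580 to 1640 in the libraries labelled guide 1. Of 8 leukocyte and macrophage markers, 0 reached 1 CPM, and the pan-leukocyte gene PTPRC, ITGAM, CD163 and CD3E each had 3 counts or fewer over the 3 libraries of every group. Summed levels of 6 genes often high in HEK293 lines were 15.7 to 16.3 CPM with shScramble, 1.36 to 1.99 with guide 2 and 181 to 196 in the libraries labelled guide 1. Summed levels of 9 genes often high in other epithelial lines were 29.4 to 31.1, 4.85 to 5.26 and 150 to 191 CPM, in the same order. Most of this was VIM (mean 23.1, 3.56 and 153 CPM). The 8 fibroblast markers summed to 43.6 to 47, 37.3 to 40.7 and 20 to 26.4 CPM, mostly COL1A1 (mean 43.4, 35.3 and 21.1 CPM). The 6 basal markers summed to 6.26 to 6.66, 8.84 to 10.5 and 6 to 6.59 CPM. These were mostly ITGB4 (mean 6.32, 9.45 and 6.12 CPM), while KRT5 and TP63 were at 0 CPM. The 5 endothelial markers summed to 1.27 to 1.81, 2.95 to 3.49 and 0.843 to 1.34 CPM, mostly VWF (mean 1.47, 2.99 and 0.984 CPM). In bulk RNA of this kind, fewer cells of a type and less RNA per cell cannot be told apart.

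LNCaP:C4-2 cells had almost no RNA of the inflammatory mediators, with LIF as the exception. LIF accounted for 1007 of the 1095 counts of the 10 members (92%). The 9 other members together had 88 counts, of which 16 were in shScramble libraries (0 to 14 per library), 12 in guide 2 libraries (1 to 7) and 60 in the libraries labelled guide 1 (15 to 23). Only LIF passed the filter on low counts (edgeR filterByExpr, minimum count 10), so 1 of 10 members was tested among 19278 genes, and 4 members (CXCL1, CXCL5, CCL20 and IL6) never exceeded 3 counts in a library.

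**Figure D2:**
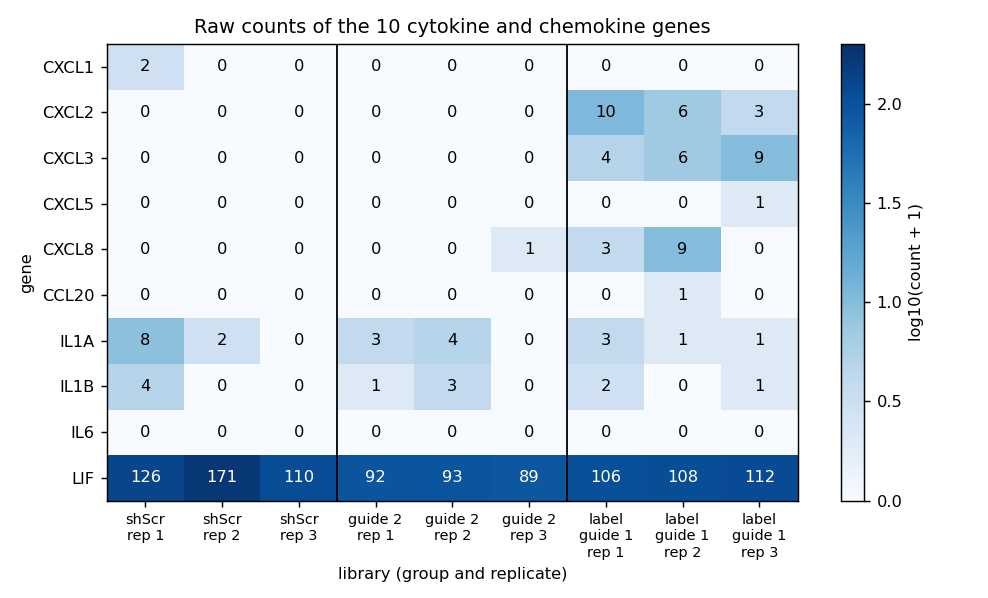
Raw counts of the 10 members (rows) in the 9 libraries (columns, 3 per group), with colour on a log10(count + 1) scale. LIF holds 89 to 171 counts in each library, and the 19 CXCL2 and 19 CXCL3 counts are all in the libraries labelled guide 1.

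Genes were called changed in the edgeR quasi-likelihood test where they differed by 1.5-fold or more with an adjusted p below 0.05. By this rule 0 members were called in any of the 3 comparisons. At an unadjusted p under 0.05 the count was 0 with guide 2, 1 in the libraries labelled guide 1 (LIF) and 0 for guide 2 against guide 1, and DESeq2 called 0 members in each. Of all genes tested, 8.85% were called higher and 20.4% lower with guide 2. Under the guide 1 label 21.2% were called higher and 16.5% lower, and 47.3% differed in either direction between guide 2 and guide 1. The 2 comparisons with shScramble share its 3 libraries.

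Among the chemokines, CXCL1 (ENSG00000163739, chr4:73869393-73871242, plus strand) had 2 counts in shScramble replicate 1 and 0 in the 8 other libraries. CXCL1, first known as a growth factor of melanoma cells, is a CXCR2 ligand. With guide 2 its pooled count of 0 allows a level of up to 0.04 CPM (3 counts over the group). A difference between the groups was not detectable at this depth.

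CXCL2 (ENSG00000081041, chr4:74097035-74099293, minus strand), a close paralogue of CXCL1, had 0 counts in each of the 3 shScramble and 3 guide 2 libraries. It had 10, 6 and 3 counts in the libraries labelled guide 1, which did not overlap the others. Pooled over its 3 libraries, the guide 1 label gave 0.227 CPM (exact Poisson 95% interval 0.136 to 0.354), against limits of 0.0363 CPM with shScramble and 0.04 CPM with guide 2, where the count was 0.

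CXCL3 (ENSG00000163734, chr4:74036589-74038807, minus strand), the third paralogue, gave the same totals. It had 0 counts in the 6 shScramble and guide 2 libraries, and 4, 6 and 9 counts in the libraries labelled guide 1. Taking the 19 counts as observed, CXCL2 and CXCL3 in the libraries labelled guide 1 were each 6.23-fold the limit of 3 counts over the shScramble group. They were 5.67-fold the same limit for guide 2. With counting error in both groups, the exact 95% lower limits of the ratios to shScramble and to guide 2 were 4.59 and 4.18. The exact two-sided permutation test on the CPM of 3 against 3 libraries gave p = 0.1 for each gene, the smallest value it can give.

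Reads of CXCL1, CXCL2 and CXCL3 may be divided between these genes by the authors' counting. In their longest mRNAs, 5.33%, 10.1% and 5.26% of the 50-base windows of CXCL1, CXCL2 and CXCL3 recurred in another of the 3 genes, and 0 windows of 100 bases did.

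Without the filter on low counts, edgeR called CXCL2 (adjusted p = 0.00106), CXCL3 (adjusted p = 0.00109) and CXCL8 (adjusted p = 0.0115) higher in the libraries labelled guide 1 than with shScramble. In that fit 11.8% of 38951 genes were called higher. CXCL2 (edgeR adjusted p = 0.00203) and CXCL3 (edgeR adjusted p = 0.00209) were called lower with guide 2 than in the libraries labelled guide 1, where 16.4% of genes were. The CXCL8 call was lost without guide 1 replicate 2, while CXCL2 and CXCL3 stayed called when any 1 guide 1 library was left out. A further rule, chosen after the values had been seen, asked for 3 or more counts in every library labelled guide 1 and 0 in every other library. It found 47 of the 38951 genes with a count (0.121%), CXCL2 and CXCL3 among them, against 1 gene for shScramble and 0 for guide 2.

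The CXCL2 and CXCL3 counts came from the same libraries in which the 6 genes often high in HEK293 lines summed to 181 to 196 CPM, against 15.7 to 16.3 with shScramble and 1.36 to 1.99 with guide 2, and in which luminal markers summed to 1580 to 1640 CPM, against 3070 to 3130 and 3540 to 3680. METTL3 was not lowered in them. The part of these differences in the chemokine counts was not tested. Leukocyte markers summed to 0.456 to 0.769 CPM in these libraries, against 1.1 to 1.16 with shScramble.

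CXCL8 (ENSG00000169429, chr4:73740506-73743716, plus strand), the human neutrophil chemokine interleukin-8, had 0 counts in the 3 shScramble libraries and 0, 0 and 1 with guide 2. The libraries labelled guide 1 had 3, 9 and 0 counts, so that replicate 2 held 9 of the 12 and the groups overlapped. Pooled, these libraries had 0.143 CPM (exact Poisson 95% interval 0.0739 to 0.25). Taking the 12 counts as observed, this was 3.94-fold the limit of 3 counts over the shScramble group. With counting error in both groups, the exact 95% lower limit of the ratio to shScramble was 2.74. These values pool the 3 libraries and leave out the spread between them. The exact permutation test gave p = 0.4. The ratio of guide 2 to guide 1 was 0.0931 (exact 95% interval 0.00218 to 0.629, 1 count against 12).

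CXCL5 (ENSG00000163735, chr4:73995642-73998779, minus strand), an epithelial neutrophil attractant, had 1 count, in guide 1 replicate 3. CCL20 (ENSG00000115009, chr2:227813842-227817564, plus strand), the ligand of CCR6, also had 1 count, in guide 1 replicate 2. Each was at 0 in the 8 other libraries. A single count sets no level.

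**Figure D3:**
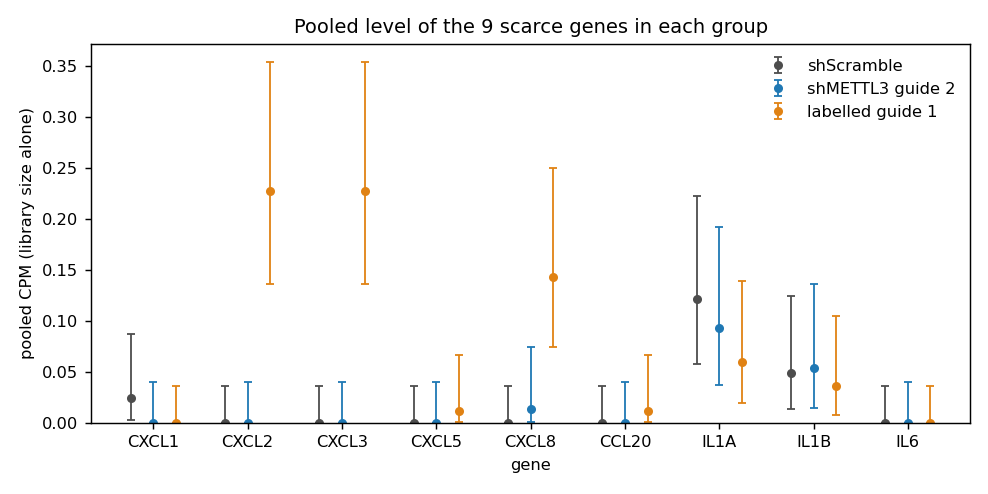
Level of the 9 scarce members in CPM (counts of the 3 libraries of a group pooled over their summed depth), with exact Poisson 95% intervals as bars (up to 3 counts where the count was 0), for shScramble, guide 2 and the libraries labelled guide 1. The CXCL2 and CXCL3 intervals of the libraries labelled guide 1 (0.136 to 0.354 CPM) lie above the limits of the other groups, and those of IL1A and IL1B overlap.

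The interleukin-1 genes were the only scarce members with counts in all 3 groups. IL1A (ENSG00000115008, chr2:112773915-112784590, minus strand), which encodes the alarmin IL-1α, had 8, 2 and 0 counts with shScramble, 3, 4 and 0 with guide 2, and 3, 1 and 1 in the libraries labelled guide 1. The groups overlapped, and shScramble replicate 1 held 8 of the 10 control counts. The ratio to shScramble was 0.77 with guide 2 (exact 95% interval 0.249 to 2.24) and 0.492 with the guide 1 label (0.132 to 1.58).

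IL1B (ENSG00000125538, chr2:112829751-112836903, minus strand) encodes the secreted IL-1β, which is cut from its precursor by caspase-1. It had 4, 0 and 0 counts with shScramble, 1, 3 and 0 with guide 2, and 2, 0 and 1 in the libraries labelled guide 1. The shScramble library with the most IL1A counts also held all 4 IL1B counts of that group. The ratio to shScramble was 1.1 with guide 2 (exact 95% interval 0.205 to 5.9) and 0.738 with the guide 1 label (0.108 to 4.36). For both genes the intervals include a ratio of 1, and a difference within these bounds was not detectable at this depth.

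IL6 (ENSG00000136244, chr7:22725884-22732002, plus strand), the acute-phase cytokine, had 0 counts in all 9 libraries. Over all libraries, a count of 0 allows a level of up to 0.0124 CPM. Its antisense gene IL6-AS1, which shares 20.7% of the IL6 exon bases, also had 0 counts.

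LIF (ENSG00000128342, chr22:30240447-30246851, minus strand) encodes leukaemia inhibitory factor, an IL-6 family cytokine that maintains stem cells and acts through LIFR and gp130. It had 126, 171 and 110 counts with shScramble, 92, 93 and 89 with guide 2, and 106, 108 and 112 in the libraries labelled guide 1. The corresponding levels after TMM scaling were 4.75 ± 0.649 CPM (SD, n = 3), 3.91 ± 0.177 CPM and 3.79 ± 0.0896 CPM. All 3 shScramble libraries (4.08 to 5.37 CPM) lay above the 3 guide 2 libraries (3.71 to 4.03) and the 3 libraries labelled guide 1 (3.72 to 3.89), and the latter groups overlapped. Per kilobase of exon, the shScramble level was 1.2 ± 0.164 CPM, below the median of 3.25 CPM per kilobase over all tested genes and above 32.9% of them.

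The decrease of LIF with guide 2 did not pass the test. Its log2 fold change was -0.28 (SE 0.147, 95% interval -0.58 to 0.02, edgeR adjusted p = 0.0954), and the exact permutation test gave p = 0.1, the smallest it can give. The size of the value depended on scaling, on the filter and on single control libraries. It was -0.43 (edgeR adjusted p = 0.0126) when libraries were scaled by size alone, a change that moved the median of all genes from -0.04 to -0.19 and the share of higher genes among those called from 30.2% to 17.2%. With a minimum mean of 1 CPM it was -0.33 (edgeR adjusted p = 0.0479). Without shScramble replicate 1 it was -0.39 (edgeR adjusted p = 0.041), and without shScramble replicate 2 it was -0.18 (edgeR adjusted p = 0.368). Fitted without the libraries labelled guide 1 it was -0.30 (edgeR adjusted p = 0.0846).

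LIF had a log2 fold change of -0.33 under the guide 1 label (SE 0.143, 95% interval -0.62 to -0.04, edgeR adjusted p = 0.0438), less than the 1.5-fold that a call required. By adjusted p alone, 33.0% of all genes were lower in these libraries. The adjusted p was above 0.05 in DESeq2 (0.0842) and, in edgeR, without the filter on low counts (0.0901) and with a replicate block (0.0578). In edgeR it was also above 0.05 without shScramble replicate 2 (0.217), shScramble replicate 3 (0.077), guide 1 replicate 1 (0.0902), replicate 2 (0.0591) or replicate 3 (0.0972). Ordered by level, shScramble was highest and the guide 2 and guide 1 groups were neighbours that did not differ beyond their spread. The log2 difference of guide 2 from guide 1 was 0.05 (SE 0.151, 95% interval -0.26 to 0.35, edgeR adjusted p = 0.793), and -0.09 with scaling by library size alone.

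Exons of LIF overlap those of 2 antisense genes, and the strand setting of the counting is not given in the sources used here, so reads in the shared bases could be assigned to either. LIF-AS2 shares 175 bases, 4.41% of the LIF exons, and had 11, 14 and 14 counts with shScramble, 14, 10 and 6 with guide 2, and 4, 2 and 4 in the libraries labelled guide 1. LIF-AS1 shares 92 bases (2.32%) and had 0 counts. By the root mean square difference of log2 CPM over the 9 libraries, each gene centred on its shScramble mean, the genes closest to LIF among 15422 were ZEB1-AS1 (0.0813), RTKN2 (0.0826) and STAM2 (0.0843).

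**Figure D4:**
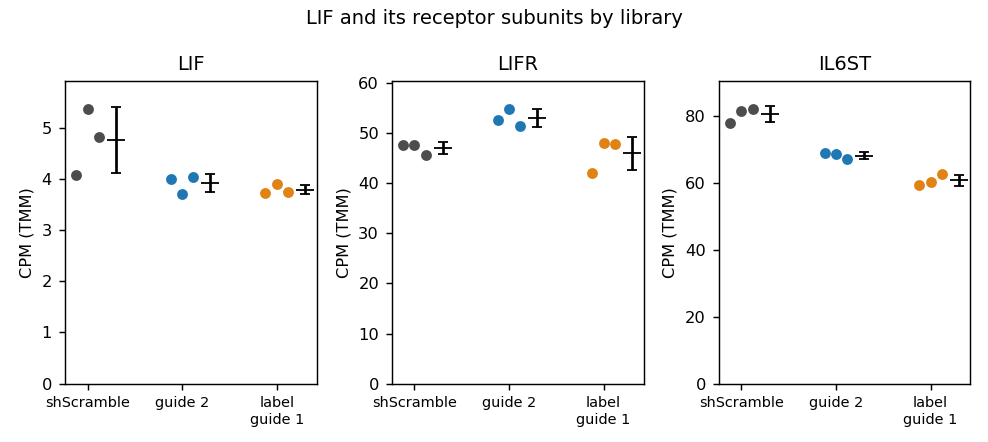
TMM-scaled CPM of LIF and its receptor subunits LIFR and IL6ST in each library (points), with the mean and SD of 3 libraries (black bars) for shScramble, guide 2 and the libraries labelled guide 1. All LIF values of shScramble (4.08 to 5.37 CPM) lie above those of guide 2 (3.71 to 4.03) and the libraries labelled guide 1 (3.72 to 3.89). How common such separation is among all genes was not determined. Both subunits are present in every library.

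The receptors through which the members act were measured next. LIFR was at 47 ± 1.13 CPM (SD, n = 3) with shScramble, 53 ± 1.77 with guide 2 and 46 ± 3.34 in the libraries labelled guide 1. IL6ST was at 80.5 ± 2.36, 68.1 ± 1.02 and 60.7 ± 1.71 CPM. Neither was called in either comparison with shScramble, and RNA of LIF and of both receptor subunits was present in each library. IL6ST was lower by less than the required fold, with log2 -0.24 with guide 2 (edgeR adjusted p = 9.91e-05) and -0.41 under the guide 1 label (edgeR adjusted p = 1.86e-08). LIFR had log2 0.17 (edgeR adjusted p = 0.0115) and -0.03 (edgeR adjusted p = 0.613). IL6R, the ligand-binding IL-6 receptor, was at 102 ± 5.62, 104 ± 5.12 and 51.1 ± 2.27 CPM, whereas its ligand had 0 counts.

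Of the 10 receptor genes, 6 were tested. With guide 2, 1 rose (IL1R2) and 0 fell, with a median log2 fold change of 0.21 against -0.04 over all tested genes. IL1R2, the decoy receptor that binds interleukin-1 without signalling, had 5, 4 and 3 counts with shScramble, 17, 10 and 20 with guide 2, and 1, 4 and 1 in the libraries labelled guide 1. Its log2 fold change with guide 2 was 2.23, from 0.14 to 0.681 CPM, but it passed the filter on low counts through the guide 2 libraries alone. The filter thus favoured a rise of IL1R2, so its test carries no weight. The median of 0.21 includes it. The signalling receptor IL1R1 was at 28.2 ± 1.03 CPM with shScramble and 38.2 ± 0.587 with guide 2, under the fold required. The log2 value of IL6R with guide 2 was 0.03, and it turned to -0.12 with scaling by library size alone.

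Under the guide 1 label 0 receptors rose and 3 fell: IL6R by 1.00, IL1R1 by 1.15 and IL1RAP by 0.78 on the log2 scale. The median over the 6 was -0.87, against -0.02 over all tested genes. The summed luminal markers were lower in the same libraries, at 1580 to 1640 CPM against 3070 to 3130 with shScramble. The part of this in the receptor values was not tested. The receptors on the target cells of the chemokines were nearly silent, with 6 counts of CXCR1 and 18 of CXCR2 over all libraries and 0 of ACKR1 and CCR6.

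Other chemokines were as scarce as the members. Of 30 listed, 28 did not pass the filter, and 2 were tested, CXCL12 and CXCL16. CXCL16, a membrane-bound chemokine, was at 66 ± 1.84 CPM with shScramble, 101 ± 3.23 with guide 2 and 43.8 ± 1.78 in the libraries labelled guide 1. It rose with guide 2 by 0.61 on the log2 scale (SE 0.0491, edgeR adjusted p = 2.62e-11), a call that scaling by library size alone (0.46) and a filter at a mean of 1 CPM (0.56) removed. CXCL12, the ligand of CXCR4, had 15, 24 and 20 counts with shScramble, 16, 11 and 14 with guide 2, and 176, 176 and 206 in the libraries labelled guide 1, where its log2 fold change was 3.22 (SE 0.205, edgeR adjusted p = 6.67e-14). The median log2 fold change of the pair was 0.18 with guide 2 and 1.31 in the libraries labelled guide 1. CXCL16 fell in the latter (log2 -0.59), at the edge of the required fold: the call was lost without shScramble replicate 1 (-0.57), guide 1 replicate 1 (-0.58) or guide 1 replicate 3 (-0.57).

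Of 20 other cytokines of the IL-1, IL-6 and tumour necrosis factor families, 7 were tested. With guide 2, IL1RN rose and CTF1 and CLCF1 fell, and the median log2 fold change was -0.22. IL1RN, the secreted antagonist of the interleukin-1 receptor, was at 0.876 ± 0.174 CPM with shScramble and 1.92 ± 0.284 with guide 2 (log2 1.14, SE 0.287, edgeR adjusted p = 0.00123). CLCF1, a gp130 ligand, was at 1.09 ± 0.0869 and 0.631 ± 0.121 CPM (log2 -0.80, edgeR adjusted p = 0.027). Its call was lost in DESeq2, without the low-count filter, and without shScramble replicate 2 (-0.73), guide 2 replicate 1 (-0.73) or guide 2 replicate 2 (-0.71). CTF1, another gp130 ligand, had 13, 10 and 2 counts with shScramble and 2, 1 and 1 with guide 2 (log2 -2.25), and its call was lost without shScramble replicate 1 (-1.83). It passed the filter through the libraries labelled guide 1. IL1RN and IL11 fell under the guide 1 label, and the IL1RN call was lost without guide 1 replicate 3 (-0.74).

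**Figure D5:**
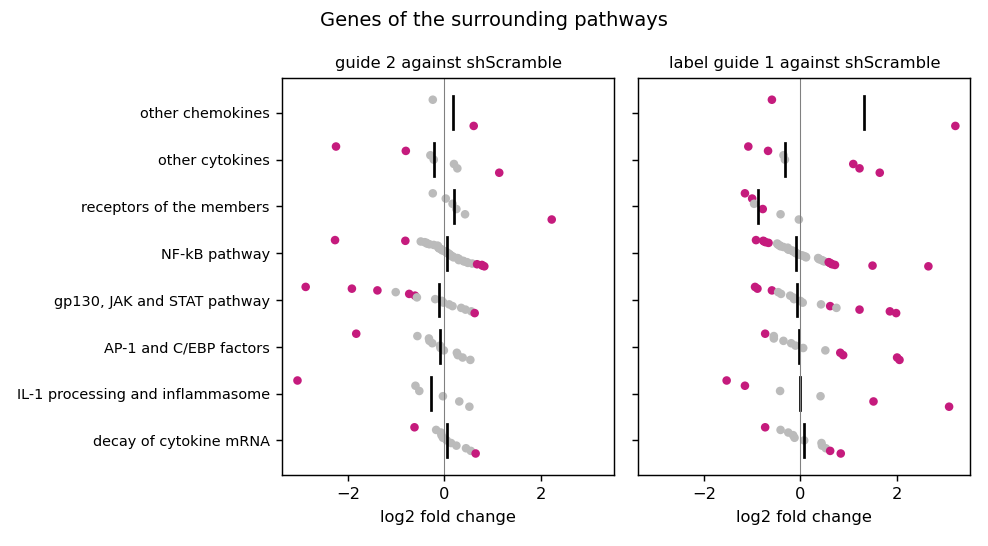
Log2 fold change against shScramble of the tested genes on 8 lists of pathway genes, with guide 2 (left) and in the libraries labelled guide 1 (right). Each point is a gene, pink where called and grey where not, and black ticks are list medians, which range from -0.28 to 0.21 with guide 2.

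All 39 listed genes of the NF-κB pathway were tested. With guide 2, 4 rose (IKBKE, TRAF3, MYD88 and TNFRSF1B) and 2 fell (NFKBIZ and TRAF1), and the median log2 fold change was 0.06. MYD88, the adaptor of interleukin-1 and Toll-like receptors, rose from 16.6 ± 0.362 to 29.5 ± 0.863 CPM (log2 0.83, SE 0.0801, edgeR adjusted p = 8.95e-10). NFKBIZ, an atypical inhibitor protein needed for part of the IL6-type response, fell from 4.61 ± 0.473 to 2.64 ± 0.461 CPM (log2 -0.81, SE 0.164, edgeR adjusted p = 0.000119). TNFRSF1B rose by 0.79, a call that was lost with scaling by library size alone (0.64) and without shScramble replicate 1 (0.71), shScramble replicate 3 (0.67) or guide 2 replicate 2 (0.67). TRAF1, an NF-κB target and signalling adaptor, fell from 1.25 ± 0.21 to 0.258 ± 0.0784 CPM (log2 -2.27) and was at 7.98 ± 0.89 CPM in the libraries labelled guide 1. In those libraries 7 of the 39 rose (REL, CHUK, MAP3K7, TAB2, TRAF1, TRAF3 and IRAK1) and 5 fell (TBK1, BIRC3, MYD88, TOLLIP and TRADD). The median was -0.09.

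All 16 genes of the gp130, JAK and STAT list were tested. With guide 2, 1 rose (CISH) and 5 fell (JAK1, JAK2, SOCS2, IL11RA and CNTFR), and the median was -0.12. JAK1, the kinase that gp130 chiefly uses, fell from 28.5 ± 1.44 to 10.9 ± 0.735 CPM (log2 -1.39, SE 0.0715, edgeR adjusted p = 2.64e-15). SOCS2, a feedback inhibitor, changed by -1.92, IL11RA by -0.73, and CNTFR, the receptor of ciliary neurotrophic factor, by -2.88. Under the guide 1 label, 4 rose (JAK1, SOCS2, IL11RA and CNTFR) and 3 fell (JAK2, STAT3 and STAT5A), with a median of -0.07. STAT3 itself was at 152 ± 3.39 CPM with shScramble, 224 ± 8.29 with guide 2 and 101 ± 2.25 in the libraries labelled guide 1. Its log2 value of -0.59 in the last lay at the edge of the fold, and the call was lost in DESeq2 (-0.58), without shScramble replicate 1 (-0.58) and without guide 1 replicate 1 (-0.57). The IL11RA call of the guide 1 label was lost without shScramble replicate 1 (0.52).

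Of 13 listed AP-1 and C/EBP factors, 12 were tested. With guide 2, 0 rose and 1 fell, and the median was -0.09. The 1 was ATF3, a stress-induced factor of the AP-1 type, which fell from 104 ± 3.06 to 29.2 ± 1.91 CPM (log2 -1.83, SE 0.0728, edgeR adjusted p = 5.88e-14). FOS, JUN, ATF3 and EGR1 rose in the libraries labelled guide 1 and JUNB fell, with a median of -0.02.

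Of 11 genes of IL-1 processing and the inflammasome, 6 were tested, and with guide 2 the median was -0.28. NLRP1, an inflammasome sensor named here after its values had been seen, fell with guide 2 from 0.883 ± 0.261 to 0.0983 ± 0.0462 CPM, 0 rose, and in the libraries labelled guide 1 NLRP1 and NLRC4 rose while CASP4 and GSDMD fell (median 0.00). Of 11 genes for the decay of cytokine mRNA, all tested, HNRNPD rose (log2 0.65) and TIA1 fell (log2 -0.62) with guide 2, and the median was 0.05. The HNRNPD call was lost with scaling by library size alone (0.50). In the libraries labelled guide 1, HNRNPD and ZFP36L2 rose and ZC3H12A fell, with a median of 0.08.

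Of the listed genes called with guide 2, TRAF1, JAK1, SOCS2, IL11RA, CNTFR, ATF3, TIA1, CTF1 and NLRP1 were lowest with guide 2, intermediate with shScramble and highest in the libraries labelled guide 1, as were CXCL12 and JUN, which were not called with guide 2. This was the order of the 6 genes often high in HEK293 lines, at 1.36 to 1.99, 15.7 to 16.3 and 181 to 196 CPM. The 9 genes often high in other epithelial lines had the same order in sum, at 4.85 to 5.26, 29.4 to 31.1 and 150 to 191 CPM. MYD88, CXCL16, IL1RN, IL1R2, IKBKE and TNFRSF1B were highest with guide 2 and lowest in the libraries labelled guide 1, as were IL1R1, IL1RAP and STAT3, which were not called with guide 2. This was the order of the summed luminal markers, at 3540 to 3680, 3070 to 3130 and 1580 to 1640 CPM, but not of each marker. KLK2, SLC45A3, KRT8 and KRT18 were highest with shScramble. KLK3 was lowest with guide 2 (7.43 CPM, against 13.1 with shScramble and 14.5 in the libraries labelled guide 1). The other luminal markers followed the order of the sum. The part of any of these lists in the results was not tested. LIF followed neither order, since it was highest with shScramble. Neither order was followed by CLCF1, NFKBIZ, JAK2, TRAF3, HNRNPD and CISH, the remaining listed genes called with guide 2. CTF1 and IL1R2 passed the filter on low counts only through the group where they were highest. The share of all tested genes with either order was not determined.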

How the data were processed

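The authors trimmed reads with Trim Galore (cutadapt, FastQC), aligned them to Ensembl-annotated GRCh38 with STAR and deposited featureCounts raw counts per gene and library, neither normalised nor pooled. The strand setting and the handling of reads that match several genes are not given in the sources used here. Symbols were matched by Ensembl identifier for 56558 of 60675 genes (93.2%), and 0 rows named no gene. Coordinates of genes are those of the files.

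From these counts, genes were filtered (filterByExpr, minimum count 10, minimum total 15), scaled by TMM and tested with edgeR 4.0.16 (R 4.3.3) quasi-likelihood, all 9 libraries in one model without covariates, with Benjamini-Hochberg adjustment over 19278 genes. DESeq2 1.42.0 was an alternative. Positive values are higher in the group named first. The pipeline was checked on simulated counts. Depth was 21899501 to 30897639 counts per library. Single values used exact permutation tests, Poisson or binomial intervals (95%, scipy 1.17.1).

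Members and lists were chosen with earlier results of these data known. Besides all members, METTL3 and receptors, up to 4 genes per list were named: those called with guide 2 with the largest change at 1 CPM or more. CXCL12, CTF1, NLRP1, STAT3 and the genes named to spell out counts were named after their values had been seen. Part of the result for other cytokines under the guide 1 label is not reported here.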

Additional observations from a re-analysis of the deposited data

Results flagged for a closer look

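These results are listed because the direct test of guide 2 against the libraries labelled guide 1 found a difference (edgeR, 1.5-fold or more with an adjusted p below 0.05). METTL3 was not lowered in the latter libraries, and 47.3% of all tested genes differed in this comparison. Log2 fold changes of guide 2 against guide 1 were positive for the receptors IL6R (1.02), IL1R1 (1.59), IL1R2 (3.19) and IL1RAP (1.03), for CXCL16 (1.20) and IL1RN (2.22), and for MYD88 (1.58), TNFRSF1B (1.26) and STAT3 (1.15). They were negative for CXCL12 (-3.46), CTF1 (-3.90), TRAF1 (-4.93), NFKBIZ (-0.72), CNTFR (-4.74), SOCS2 (-3.91), JAK1 (-2.62), IL11RA (-1.35), ATF3 (-2.73), TIA1 (-1.07) and NLRP1 (-6.13). IL1R2 passed the filter on low counts through the guide 2 libraries alone, and CTF1 through those labelled guide 1. The filter thus favoured a difference for IL1R2 and CTF1, and their tests carry no weight here. Among the members, CXCL2 (edgeR adjusted p = 0.00203) and CXCL3 (edgeR adjusted p = 0.00209) differed when low counts were not filtered out, with 0 counts under guide 2 and 19 each in the libraries labelled guide 1.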

How the results depend on the processing

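The count of members called was 0 in each comparison. In the libraries labelled guide 1 it became 3 without a filter on low counts, 1 by adjusted p alone (LIF) and 1 with CXCL1, CXCL2 and CXCL3 summed, a sum that passed the filter only through these libraries and so had to differ. For guide 2 against guide 1 it became 2 without the filter and 1 with the summed genes. With single libraries left out it was 0 to 3 for guide 1 against shScramble and 0 to 3 for guide 2 against guide 1, the values above 0 coming from fits that also dropped the filter, an alternative chosen after seeing the data. For guide 2 against shScramble it stayed 0 in every alternative run. Replicate numbers did not pair the libraries (correlations of deviations -0.10 to 0.05). With the replicate block LIF was -0.28 with guide 2 (edgeR adjusted p = 0.116) and -0.33 with the guide 1 label (edgeR adjusted p = 0.0578), and 0 members were called. Of 1232 alternative values for 78 pairs of gene and comparison, 1204 kept their direction and side of the threshold, 22 lost the call and 6 changed sign. The last were IL6R with guide 2 (-0.12 by library size alone, -0.02 with a minimum mean of 1 CPM, -0.01 to 0.06 with single libraries left out), LIFR in the libraries labelled guide 1 (-0.07 to 0.03 with single libraries left out) and LIF for guide 2 against guide 1 (-0.09 by library size alone). Their causes were not tested. Depth limits the 9 scarce members, for which several-fold differences could go undetected.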
